A study of Mus musculus with 6 samples.

Results

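The genes described here encode the degradative machinery of the lysosome and the core of autophagy. They are 39 genes named by symbol, not by a threshold on a measurement, and all were found among the 40202 genes of the deposited table. They comprise 2 lysosomal membrane proteins, 8 cathepsins, 5 glycosidases, 6 genes of lipid hydrolysis and cholesterol export, 3 transcription factors of the MiT/TFE family with the calcium channel gene Mcoln1, 6 genes of the vacuolar proton pump (V-ATPase) and 8 autophagy genes. The lipid group is broad, and Grn, the progranulin gene, is counted in it. Expression was measured by sequencing total RNA of BV2, an immortalised mouse microglial line with a C57BL/6 strain background. The control group held 3 untreated libraries (Control), and the other 3 libraries (FL-ApoE4) came from cells that received the human lipid carrier apolipoprotein E4 in its full length, 25 µg/ml over 5 h. All 6 libraries come from 1 line, the labels do not say whether controls received a vehicle or whether replicates were separate cultures, and p-values therefore measure the spread between these libraries, which may be technical.

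Lysosomes degrade what microglia take up by endocytosis and phagocytosis, lipoproteins included. Their hydrolases work at acid pH, which the V-ATPase maintains by pumping protons into the lumen. Autophagy delivers the cell's own cytoplasm to the same compartment: the ULK1 kinase complex starts it, the Beclin 1 lipid kinase complex marks the membrane, and the ATG7, ATG5 and ATG16L1 proteins help to attach LC3 and GABARAP proteins to it. TFEB, TFE3 and MITF switch on many lysosomal and autophagy genes by binding the CLEAR element, which contains the E-box core CACGTG. When nutrients are plentiful, the kinase mTORC1 holds TFEB in the cytoplasm.

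The CLEAR core was looked up in the members' promoters, since it is the sequence through which the transcription factors of the list are known to act on the other genes. RefSeq promoter windows of build GRCm38.p6, 300 bases long from 250 before to 50 after a gene start, were given for 32 of the 39 members (41 windows). There was none for Ctsb, Ctsh, Npc1, Atp6v1b2, Atp6v1h, Becn1 and Atg16l1. The 6-letter core CACGTG, which reads the same on both strands, was in at least 1 window of 11 members (34.4%), against 8.09% of all 27025 genes with a window. The longer TCACGTG, searched on both strands and always overlapping the core, was in 9 members (28.1%), against 4.29% of all genes. For 8 of those 9, the stretch shown is around the nearest core that lies before the gene start. It is on the gene's strand and ends no later than the gene start, with every CACGTG in capitals. Cores after the start, which could lie nearer, are not shown. The core of the ninth, Atp6v0d1, spans the gene start and is not shown.
Lamp1, chr8:13159122-13159160, plus strand: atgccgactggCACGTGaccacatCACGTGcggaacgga
Ctsa, chr2:164833737-164833772, plus strand: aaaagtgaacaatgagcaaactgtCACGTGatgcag
Ctsd, chr7:142387896-142387949, minus strand: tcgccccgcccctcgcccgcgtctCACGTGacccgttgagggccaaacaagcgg
Glb1, chr9:114401006-114401059, plus strand: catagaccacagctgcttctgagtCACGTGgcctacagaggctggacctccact
Gaa, chr11:119267799-119267852, plus strand: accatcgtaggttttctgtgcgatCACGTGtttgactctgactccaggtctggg
Mcoln1, chr8:3500450-3500503, plus strand: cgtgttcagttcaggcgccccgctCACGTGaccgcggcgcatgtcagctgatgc
Atp6v1a, chr16:44139361-44139414, minus strand: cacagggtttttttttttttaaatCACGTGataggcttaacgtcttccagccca
Atg7, chr6:114670940-114670993, plus strand: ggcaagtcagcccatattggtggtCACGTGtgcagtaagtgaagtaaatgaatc
Lamp1 had 4 cores in its window, and Ctsa, Ctsd and Mcoln1 had 2 each. A match describes the letters of the window only and does not show that a factor bound there.

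Libraries held 45700128 to 54965393 reads assigned to genes, and Wipi1, at 52.4 to 74.0 normalised reads, was by far the member with the lowest counts. Control replicate 1 stood apart: over all 14079 genes tested, its median absolute log2 distance from the other controls was 0.16, and the same measure was 0.08 to 0.12 in the other 5 libraries. Over the 39 members it was 0.08 in Control replicate 1 and 0.03 to 0.08 in the others. Leaving that library out turned the sign of 5 members' differences (Ctsc, Gaa, Grn, Psap and Atp6v1h) and moved 18 others by over 1.5 times with the sign kept, none of the 5 called by limma with or without it. Of 11 microglia and macrophage markers, 10 had a mean of at least 10 normalised reads, and the homeostatic marker P2ry12 was listed at 0 in all 6 libraries. The summed level of that marker list was 131078 to 141111 normalised reads in controls and 153843 to 161060 with FL-ApoE4, without overlap, and its part in the results below was not tested. Singly, Aif1, Csf1r, Cx3cr1, Adgre1 and Tmem119 were higher without overlap, as were 11.1% of all tested genes. Itgam, Ptprc, Spi1, Tyrobp and Fcer1g overlapped between the groups. In bulk RNA of this line, a larger share of cells that express a gene and more RNA per cell cannot be told apart. The defining markers of astrocytes (Gfap, Aqp4), neurons (Rbfox3, Snap25), oligodendrocytes (Mog, Olig2), endothelium (Cldn5) and fibroblasts (Col1a1, Col1a2) were at or near 0, while the endothelial list summed to 3002 to 4765 in controls and 4017 to 4534 with FL-ApoE4, nearly all of it Kdr.

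The lysosomal hydrolases were among the strongly expressed genes of these cells and differed little between the groups. The 39 members together made up 2.45% to 2.57% of all normalised reads in controls and 2.55% to 2.66% with FL-ApoE4. Of the 39, 34 differed by under 10% between the group means. All 39 passed the filter on low values, a mean of at least 10 normalised reads, which 14079 genes passed. The median log2 difference (FL-ApoE4 minus Control) was 0.02 over the members and 0.00 over all tested genes. The median size of the difference, without its sign, was 0.05 for members, 0.10 for all tested genes and 0.06 for the 7692 genes with a mean of at least 1000.

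**Figure D1:**
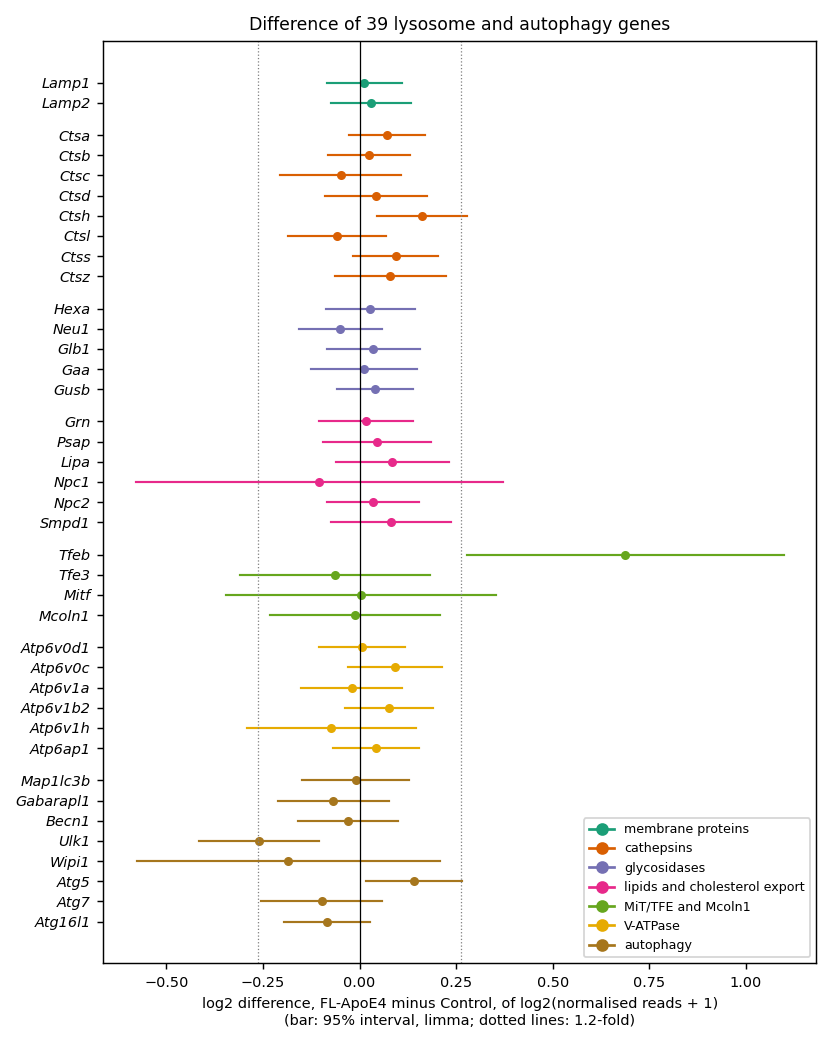
Log2 difference (FL-ApoE4 minus Control, of log2 normalised reads plus 1) of each of the 39 members, grouped and coloured by role; points are estimates and bars 95% intervals by limma, and dotted lines mark 1.2-fold. Tfeb lies at 0.69, right of every other member, Ulk1 is the lowest at -0.26, and 30 of the 39 intervals lie within 1.2-fold.

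By limma with Benjamini-Hochberg adjustment over all 14079 genes, 0 of the 39 members reached an adjusted p under 0.05, and 0% of all genes did. At an unadjusted p under 0.05 there were 4 members (10.3%), against 13.1% of all genes. Tfeb, Ctsh and Atg5 were on the higher side, where 6.81% of all genes were, and Ulk1 was on the lower side with 6.33% of all genes. The edgeR quasi-likelihood test on the recovered reads called 0 members, and DESeq2 called 1, Tfeb, where it called 2.77% of all genes. The authors' deposited table also has Tfeb as the only member with an adjusted p under 0.05, a threshold that 2.85% of the genes with an adjusted p in that table passed. For 8 members (20.5%) the groups' libraries were fully apart, against 21.9% of all tested genes. With FL-ApoE4 6 of these were higher and 2 lower, where 11.1% and 10.9% of all genes were. For 30 members the 95% interval of the difference lay within 1.2-fold in either direction.

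Among the regulators, Tfeb, the transcription factor best known as a master regulator of lysosome genes, had the largest difference of the 39. It was at 762, 1196 and 1240 normalised reads in Control replicates 1 to 3 and at 1766, 1658 and 1617 in FL-ApoE4 replicates 1 to 3. Every treated library lay above every control, and Control replicate 1 was the lowest library by a wide gap. The log2 difference was 0.69 ± 0.18 (SE, n = 3 each; limma adjusted p = 0.198), and its 95% interval ran from 21.2% to 114% higher. Without Control replicate 1 Tfeb rose by 0.46 on the log2 scale (limma adjusted p = 0.00576), in a fit that called 4.62% of all genes, 2.93% higher and 1.69% lower. In the authors' deposited table its log2 fold change was 0.66, with an adjusted p of 0.00782. No gene overlapped Tfeb in the RefSeq annotation.

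The other family members among the 39, Tfe3 and Mitf, had smaller differences, and the gap to Tfeb was not tested. Tfe3, a paralogue expressed in most tissues, was at 1012, 1209 and 1224 normalised reads in controls and at 979, 1119 and 1197 with FL-ApoE4. The groups overlapped, replicate 1 was the lowest library in each, and the 95% interval of the difference ran from -19.3% to 13.5%. Its log2 difference was -0.06 with all libraries and -0.15 without Control replicate 1. Mitf, the family member known from melanocytes and osteoclasts, was at 3676, 2485 and 2530 in controls and at 2636, 3050 and 2898 with FL-ApoE4. Here Control replicate 1 was the highest of the 6 libraries, the opposite of its place for Tfeb. The log2 difference of Mitf was 0.00 with all libraries and 0.19 without Control replicate 1 (limma adjusted p = 0.176). With both replicate 1 libraries left out, a setting chosen after seeing the data, Mitf rose by 0.25 (limma adjusted p = 0.00334), where 12.6% of all genes and 3 of the 39 members were called. Over all settings its difference ran from -0.09 to 0.25. Tfec, a family member outside the 39, was at 5630, 2571 and 2356 in controls and at 2263, 2249 and 2336 with FL-ApoE4. Every treated library lay below every control, as for 10.9% of all tested genes, and Control replicate 1 was by far the highest. The log2 difference of Tfec was -0.51 ± 0.30 (limma adjusted p = 0.520) with all libraries and -0.11 without Control replicate 1. Mcoln1, which encodes the lysosomal calcium channel TRPML1, differed by -0.01 ± 0.09, and by -0.08 without Control replicate 1.

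**Figure D2:**
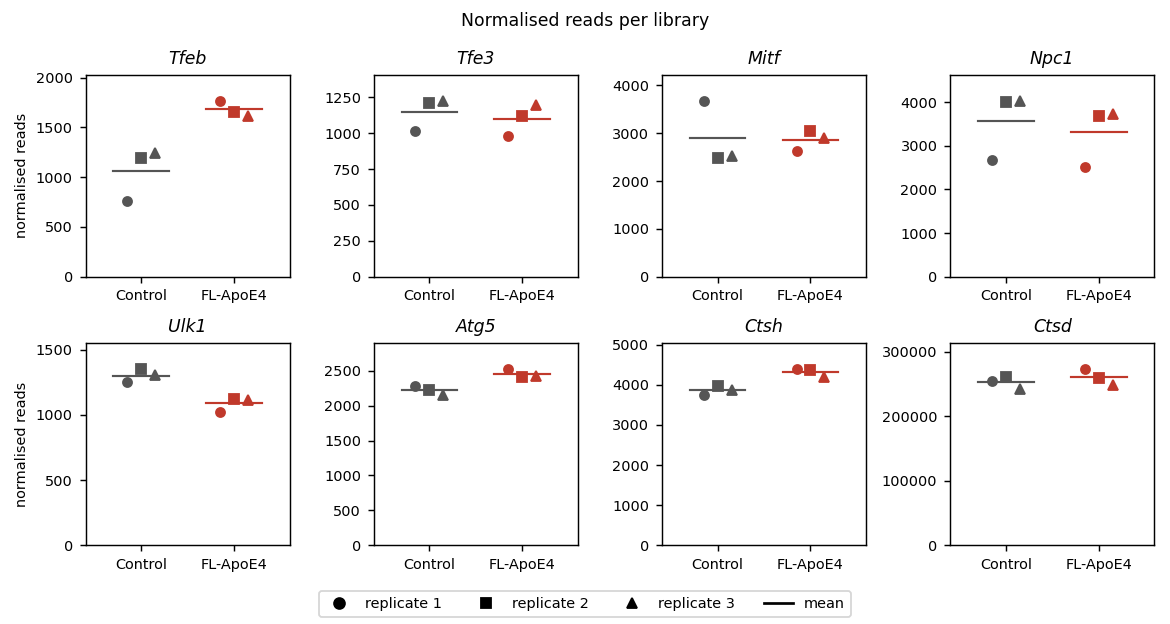
Normalised reads (linear axis from 0) of 8 members in each library; grey is Control, red is FL-ApoE4, symbols mark replicates 1 to 3 and lines the group means. Tfeb, Ulk1, Atg5 and Ctsh show groups without overlap, Npc1 is low in replicate 1 of both groups, and Ctsd lies between 242719 and 272297 normalised reads in all libraries.

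The members that carry the CLEAR core had small differences in both directions. The 11 with CACGTG in a window (Lamp1, Ctsa, Ctsd, Ctsl, Glb1, Gaa, Mcoln1, Atp6v0d1, Atp6v1a, Atg5 and Atg7) had a median log2 difference of 0.01, with 7 positive and 4 negative and a range from -0.10 to 0.14. The 21 matched members without it had a median of 0.03. The median of the 11 was also 0.01 without Control replicate 1, where limma called 0 of them. None of the windows of Tfeb itself held the core.

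The cathepsins are the main lysosomal proteases. Ctsd, the aspartic protease, had the highest level per length of all 39 members, with 118724 normalised reads per kb of transcript in controls. It was followed by Ctsz (74337 per kb), a carboxypeptidase, and Ctsb (40890 per kb), a cysteine protease. Ctsd was at 254841, 260022 and 242719 normalised reads in controls and at 272297, 259216 and 248763 with FL-ApoE4. These ranges overlapped, and the 95% interval of the difference ran from -6.00% to 12.8%. Ctsb differed by 1.69% and Ctsz by 5.60% between the group means, with overlapping libraries, and the log2 difference of Ctsz was 0.08 with all libraries and 0.12 without Control replicate 1. The 8 cathepsins had a median log2 difference of 0.06, 6 of them positive.

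Ctsh, an aminopeptidase of the papain family, had the largest difference among the cathepsins. Its normalised reads were 3740, 3964 and 3878 in controls and 4384, 4369 and 4202 with FL-ApoE4. All treated libraries lay above all controls, with a log2 difference of 0.16 ± 0.05 (limma adjusted p = 0.242). Ctss, the cathepsin that trims the MHC class II invariant chain, was at 32527 to 33365 in controls and 34172 to 36588 with FL-ApoE4, also without overlap (limma adjusted p = 0.452). Ctsa, which protects β-galactosidase and neuraminidase in a shared complex, was at 75052 to 75640 and 78033 to 80769, again without overlap (limma adjusted p = 0.533). Ctsc, the activator of granule serine proteases, and Ctsl were at log2 differences of -0.05 ± 0.07 and -0.06 ± 0.05. For Ctsc Control replicate 1 was the highest library, at 24231 against 20548 to 21576 in the other 5, and without it the log2 difference was 0.02, that of Ctsl being -0.03.

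The glycosidases cut sugars from glycolipids and glycoproteins. Gusb (β-glucuronidase) was at 42552 to 43699 normalised reads in controls and 43574 to 44963 with FL-ApoE4, and Hexa, whose loss causes Tay-Sachs disease, at 24662 to 26217 and 25226 to 27056. Glb1 (β-galactosidase), Gaa (acid α-glucosidase, lost in Pompe disease) and Neu1 (sialidase) had log2 differences of 0.04 ± 0.05, 0.01 ± 0.06 and -0.05 ± 0.05. All 5 overlapped between the groups, and their 95% intervals together covered -10.4% to 11.4%. Leaving out Control replicate 1 took Gaa to -0.02 and Hexa from 0.03 to 0.05 on the log2 scale. The membrane proteins Lamp1 and Lamp2, which line and protect the lysosome, differed by 0.840% and 2.02%, and Lamp2 had log2 differences of 0.03 with all libraries and 0.05 without Control replicate 1. Lamp1 was among the steadiest members, at 45474, 45626 and 45918 in controls and 46936, 45461 and 45771 with FL-ApoE4.

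Of the genes for lipid breakdown and cholesterol export, Npc1, which moves cholesterol out through the lysosomal membrane, varied most. It was at 2671, 4014 and 4030 normalised reads in controls and at 2522, 3691 and 3739 with FL-ApoE4. Replicate 1 was far below the others in both groups. The log2 difference was -0.10 ± 0.20, with a 95% interval from -33.1% to 29.4%, the widest among genes of this role. It ranged from -0.30 without Control replicate 1 (limma adjusted p = 0.325) to 0.08 without replicate 1 of FL-ApoE4. Npc2, the soluble partner that hands cholesterol to NPC1, was at 19617 to 20296 and 19494 to 21497. Lipa, the acid lipase that frees cholesterol from its esters, had a log2 difference of 0.08 ± 0.06, with Control replicate 1 the lowest library at 26243, and of 0.03 without it. Psap, the precursor of the saposins that present sphingolipids to their hydrolases, and Grn, the progranulin gene linked to frontotemporal dementia, were also lowest in Control replicate 1 (85896 and 55630). Their log2 differences were 0.04 ± 0.06 and 0.02 ± 0.05, and without that library -0.01 and -0.02. The 6 genes of this role, with Grn counted among them, had 5 positive differences (median 0.04). Without Control replicate 1 they had 3 positive and 3 negative differences (median 0.01). Smpd1, the acid sphingomyelinase, was at 707 to 771 in controls and 768 to 787 with FL-ApoE4, a log2 difference of 0.08 ± 0.07 that was 0.05 without Control replicate 1.

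The V-ATPase genes code for parts of its membrane sector (Atp6v0c, Atp6v0d1), its cytosolic sector (Atp6v1a, Atp6v1b2, Atp6v1h) and an accessory subunit (Atp6ap1). None differed by more than 0.10 on the log2 scale, and 4 of the 6 were positive. Atp6v1b2 was the only one without overlap, at 47123 to 49842 normalised reads in controls and 50180 to 53503 with FL-ApoE4, a log2 difference of 0.08 ± 0.05 (limma adjusted p = 0.556), or 0.05 without Control replicate 1. Atp6v1a, the catalytic subunit, was at 28112 to 30781 and 27772 to 30270, with log2 differences of -0.02 with all libraries and -0.06 without that one. Atp6v0c, the proton-carrying ring subunit, differed by 0.09 ± 0.05, and pseudogene copies of it (Atp6v0c-ps1 and Atp6v0c-ps2) make its read assignment uncertain. For Atp6v1h Control replicate 1 was the highest library (18442 against 14369 to 15651), and its log2 difference was -0.07 with that library and 0.04 without it. Atp6ap1 and Atp6v0d1 had overlapping libraries and differed by 0.04 ± 0.05 and 0.01 ± 0.05, and by 0.07 and 0.02 without Control replicate 1.

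**Figure D3:**
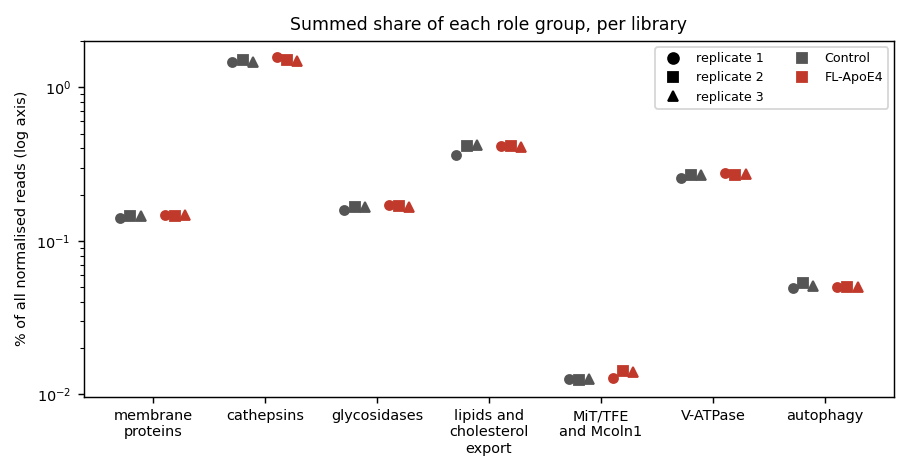
Summed normalised reads of each role group as a percentage of all normalised reads in each library (log axis); grey is Control, red is FL-ApoE4 and symbols mark replicates. Cathepsins hold 1.46% to 1.58% in all 6 libraries, autophagy genes 0.0496% to 0.0528%, and the MiT/TFE group, which contains Tfeb, 0.0123% to 0.0125% in controls and 0.0128% to 0.0141% with FL-ApoE4.

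The autophagy genes ranged from 19.0 normalised reads per kb (Wipi1) to 3048 per kb (Gabarapl1) in controls, and 7 of the 8 had a negative difference between the groups. The median was -0.08, against 0.00 for all tested genes, 49.7% of which were negative. Of the 8, 6 were negative with equal totals, with quantile normalisation, without Control replicate 2 and without FL-ApoE4 replicate 2, and over all settings tried the median stayed between -0.09 and -0.05. Ulk1, the kinase that starts autophagy and a substrate of mTORC1, was at 1252, 1349 and 1307 normalised reads in controls and at 1026, 1125 and 1114 with FL-ApoE4. Every treated library lay below every control, a log2 difference of -0.26 ± 0.07 (limma adjusted p = 0.198). Without Control replicate 1 Ulk1 fell by 0.29 (limma adjusted p = 0.0486). It was the only member besides Tfeb called in that fit, so 5.13% of members were called beside 4.62% of all genes. No gene overlapped Ulk1 in the RefSeq annotation.

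The genes of LC3 attachment lay on both sides of 0. Atg5, part of the enzyme complex that attaches LC3, was the one positive member, at 2282, 2221 and 2155 in controls and 2518, 2408 and 2418 with FL-ApoE4. The groups did not overlap, with a log2 difference of 0.14 ± 0.05 (limma adjusted p = 0.320). Its partner Atg16l1 lay on the other side, at 3287, 3315 and 3392 in controls and 3083, 3184 and 3163 with FL-ApoE4, without overlap, with a log2 difference of -0.08 ± 0.05 (limma adjusted p = 0.509). Atg7, the activating enzyme of the same reaction, had -0.10 ± 0.07 with overlapping libraries, and -0.15 without Control replicate 1. Both Atg5 and Atg16l1 are among the 19 members that overlap another annotated gene, in their case small RNAs or predicted genes, and how the authors counted reads there is not given. The same limit holds for members that overlap named genes, among them Ctsa (Neurl2 and Pltp), Ctsb (Fdft1), Ctsz (Nelfcd), Npc1 (Rmc1) and Atp6v1b2 (Slc18a1). The LC3 and GABARAP proteins themselves, Map1lc3b and Gabarapl1, had -0.01 ± 0.06 and -0.07 ± 0.06. Gabarapl1 was highest in Control replicate 1, at 5996 against 5166 to 5399 elsewhere, and its log2 difference was -0.01 without that library, where Map1lc3b had -0.04. Becn1, which encodes Beclin 1, had -0.03 ± 0.06, and -0.01 without it. Wipi1, a sensor of the lipid PI3P, was the weakest member, at 56.5, 74.0 and 59.4 in controls and 52.4, 52.8 and 60.7 with FL-ApoE4, and its interval of -32.9% to 15.5% leaves its difference poorly determined.

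**Figure D4:**
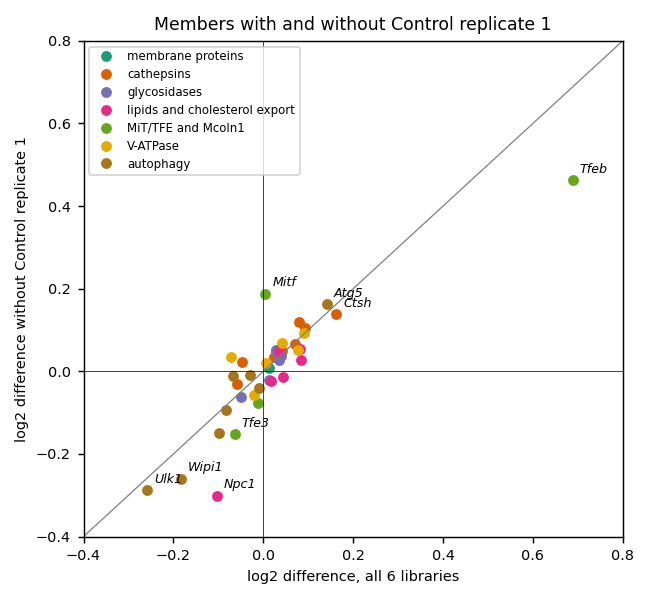
Log2 difference of each member with all 6 libraries (horizontal axis) and without Control replicate 1 (vertical axis), coloured by role, with the line of equal values. Tfeb moves from 0.69 to 0.46 and Npc1 from -0.10 to -0.30, Mitf leaves 0.00 for 0.19, and Ulk1 stays near the line at -0.26 and -0.29.

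The wider pathway was read from a list of 143 further lysosome and autophagy genes found in the table, of which 137 passed the filter. By limma 0 of the 137 were called, and 13 (9.49%) had an unadjusted p under 0.05, again against 13.1% of all genes. The groups were fully apart for 29 (21.2%), against 21.9%. In the fit without Control replicate 1 limma called 5 of the 137 (3.65%), against 4.62% of all genes: Cln3 (0.24 on the log2 scale), M6pr (0.23), Acp5 (0.43) and Atg4a (0.28) rose, and Rragd fell. With all 6 libraries those 4 differences were 0.13, 0.12, 0.29 and 0.18. Genes of lysosomal content leaned to the higher side: 19 of 25 glycosidase and enzyme-sorting genes, 10 of 11 membrane protein genes, 10 of 11 genes of the lipid group, 9 of 12 protease genes and 12 of 16 V-ATPase genes had positive differences, with medians from 0.05 to 0.10. These groups were broad: the protease group also held the protease inhibitor genes Cst3 and Cstb. The V-ATPase group held the chloride transporter gene Clcn7 and its partner Ostm1, and the lipid group Acp2, Acp5, Sort1, Gpnmb and Tmem106b. The genes around mTORC1 and TFEB control were divided, 11 positive and 12 negative. Autophagy genes leaned the other way, with 26 of 39 negative and a median of -0.06, the same sign as among the members. When Control replicate 1 was left out, 21 of those 39 were negative, with a median of -0.02, and the positive counts were 16 of 25, 8 of 11, 9 of 11, 9 of 12 and 11 of 16 in the order above. These counts describe the lists and were not tested, and among all tested genes with a mean of at least 1000 the median was -0.01.

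**Figure D5:**
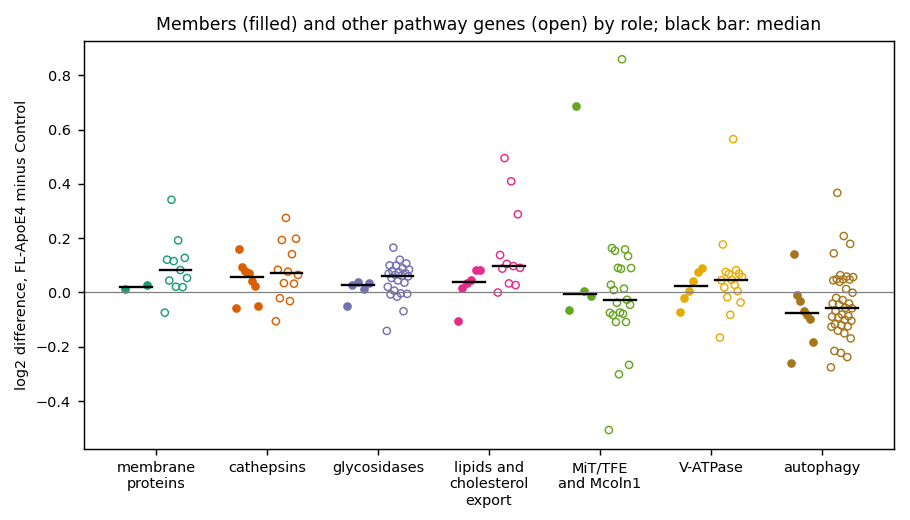
Log2 difference (FL-ApoE4 minus Control) of the 39 members (filled) and the 137 other pathway genes that passed the filter (open) by role, with black bars at the medians. The medians of the autophagy genes lie below 0 in both lists (-0.08 and -0.06), and those of the cathepsin, glycosidase, lipid and V-ATPase genes above it.

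A rule of lowest unadjusted p in each role and direction named, among autophagy genes, these partners of Ulk1. Atg13, the scaffold of the ULK1 complex, was at 6853, 6487 and 6248 normalised reads in controls and at 5264, 5116 and 5813 with FL-ApoE4. Rb1cc1, which encodes FIP200 of the same complex, was at 2248, 2209 and 2174 and at 1803, 1881 and 2034. Both were lower in every treated library than in every control, as were 10.9% of all tested genes. Their log2 differences were -0.28 ± 0.07 and -0.22 ± 0.06 (limma adjusted p = 0.177 and 0.226). In the authors' deposited table Atg13 was the only one of the wider list with an adjusted p under 0.05 (0.0319, log2 fold change -0.27). Without Control replicate 1 the limma adjusted p was 0.0732 for Atg13 and 0.131 for Rb1cc1.

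On the higher side, 3 genes of lipid breakdown, acidification and fusion show how far Control replicate 1 enters these values. Pla2g15, the lysosomal phospholipase A2, was at 2887, 3795 and 3924 normalised reads in controls and 4945, 4740 and 4297 with FL-ApoE4 (log2 difference 0.41 ± 0.12, limma adjusted p = 0.228). Tcirg1, the V-ATPase a3 subunit of macrophages and osteoclasts, was at 17476, 18934 and 18996 and at 19911, 21079 and 21635 (0.18 ± 0.06, limma adjusted p = 0.248). Plekhm1, an adaptor for fusion of autophagosomes and lysosomes, was at 7107, 10632 and 10615 and at 10911, 12891 and 12232 (0.37 ± 0.16, limma adjusted p = 0.376). In each of these genes Control replicate 1 was the lowest library, although the other controls also lay below all treated ones. Without that library the log2 differences were 0.27, 0.14 and 0.17, none of them called by limma. Sort1, a receptor that carries hydrolases to the lysosome, differed by 0.49 ± 0.14 (limma adjusted p = 0.216). It was at 152 to 190 normalised reads in controls, lowest in Control replicate 1, and at 215 to 270 with FL-ApoE4. Without Control replicate 1 its log2 difference was 0.39, not called by limma.

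The same rule, which takes genes from both directions, named those that follow, given by their log2 differences. Among proteases, Ctso (0.19), Ctsf (0.14), Lgmn (-0.03) and Ctsw (-0.11) were named, and among glycosidases Ids (0.17), Hyal2 (-0.07) and Gla (-0.14). For membrane proteins these were the transporter genes Slc36a1 (0.34), Ctns (0.19) and Mfsd8 (-0.07), at 0.17, 0.10 and -0.12 without Control replicate 1, and for lipids Plbd2 (0.00). Around mTORC1 and TFEB control, Lamtor4 (0.86, at only 23.9 to 74.7 normalised reads), Flcn (0.15), Lamtor3 (-0.11) and Rragd (-0.27) were named. Flcn and Rragd serve the nutrient signal that keeps TFEB inactive, and Rragd fell by 0.43 without Control replicate 1 (limma adjusted p = 0.0140), where Flcn had 0.07 and Lamtor3 -0.07. The V-ATPase genes were Atp6v1c2 (0.56, at 5.43 to 14.5 normalised reads), Atp6v1d (-0.08) and Atp6v0d2 (-0.17), and Atg4c, a protease of the LC3 cycle, had 0.21. Leaving out that library gave 0.68 for Lamtor4, 0.25 for Atp6v1c2, -0.27 for Atp6v0d2, -0.09 for Lgmn and -0.04 for Hyal2. All values not said to leave it out are over the 6 libraries, and none of the genes was called by limma in that fit.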

How the data were processed

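The authors deposited a normalised signal per gene for 6 libraries, and a table with log2 fold changes, a score (the statistic of each gene), p-values and adjusted p-values. The tools listed in the submitters' processing notes are HISAT2 2.2.1, DESeq2 1.30.1, FastQC 0.11.8 and HTSeq, and the build is GRCm39. Roles, settings and strandedness of counting are not given in those notes. All values (100% per library, tolerance 0.01) were whole multiples of the smallest value in their column, so whole reads were recovered. A gene at 0 in all libraries, as Atp6v0b, may not have been counted.

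Groups were compared by limma 3.58.1 in R 4.3.3 (mean-variance trend, two-sided) on log2(value + 1), for the 14079 genes with a mean of at least 10, adjusted over all of them at 0.05; log2 differences understate changes of low genes. The edgeR 4.0.16 quasi-likelihood test and DESeq2 1.42.0 ran on recovered reads. Tests were tried on simulated data. Levels per kb used the longest coding GENCODE M21 transcript. Members and gene lists were chosen with earlier results of these data known. The text names all members and, in each role, the wider list's 2 genes of lowest p each way, 1 of which is not reported here; genes named outside that rule were chosen after their values were seen.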

Additional observations from a re-analysis of the deposited data

How the results depend on the processing

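Results were recomputed under 21 other settings, 3 of them chosen after seeing the data. Of the 39 members 23 kept the sign of their difference under all 21. Mitf, called in 1 setting at 0.25, ran from -0.09 upward and kept its sign in 15 of 21. The count of called genes, 0 by limma, became 390 by DESeq2 and 1 with no filter. It was 0 to 651 with single libraries left out, where 651 came without Control replicate 1 and 1 without FL-ApoE4 replicate 2. Without Control replicate 1 it was 691 by edgeR and 959 by DESeq2, and without both replicate 1 libraries 1767 by limma. The count of called members, 0 by limma, became 1 by DESeq2, was 0 to 2 with single libraries left out, 2 without Control replicate 1 by edgeR and by DESeq2, and 3 (Tfeb, Ulk1 and Mitf) without both replicate 1 libraries (the cause was not tested). The members' median log2 difference of 0.02 was 0.03 with equal totals and with quantile normalisation (0.0316 and 0.0326) and 0.01 to 0.03 with single libraries left out. The replicate block left 0 genes and 0 members called (limma adjusted p = 0.221 for Tfeb and 0.191 for Ulk1). Deviations of same-numbered libraries correlated at 0.13, 0.07 and -0.03, and not every library correlated best with its own number, so the numbers were not taken to pair the samples. Replicate 1 was the lowest library in both groups for 10 members and 22.4% of all tested genes. It was the highest in both for 10 members and 20.2% of all tested genes, and what the replicate 1 libraries share was not tested. Depth limits Wipi1 most among members, at 52.4 to 74.0 normalised reads.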

Other observations

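The 47 autophagy genes of both lists were arranged by step, an arrangement made after their values were seen and not tested. Of the 5 genes of the ULK initiation complex, Ulk1, Atg13 and Rb1cc1 were lower in every treated library than in every control, as were 10.9% of all tested genes. Atg13 and Rb1cc1 had been picked by their low p in these same data, so their place here adds no separate support. In that complex 4 of the 5 genes were negative, with a median log2 difference of -0.22. The exception was Ulk2, the paralogue of Ulk1, which was at 793, 960 and 937 normalised reads in controls and at 923, 1016 and 1027 with FL-ApoE4. Of the 8 genes that read PI3P or move lipid to the growing membrane all were negative with all libraries and 5 without Control replicate 1 (Atg9a, Wdr45b and Vmp1 turned positive), with a median of -0.12, the lowest being the lipid transfer gene Atg2a at -0.24. Of the 7 genes of the class III PI 3-kinase complexes 6 were negative, with a median of -0.06. The conjugation enzymes (3 positive, 3 negative), the LC3 and GABARAP genes (2 positive, 3 negative) and the fusion genes (4 positive, 3 negative) were divided. The ATG4 proteases, with 3 of 4 positive, had a median of 0.12. All 5 cargo receptors were negative, with a median of -0.09, which was -0.02 with 3 of 5 negative when Control replicate 1 was left out. Without Control replicate 1 the medians were -0.20 for the ULK complex, -0.10 for the PI3P group and -0.13 for the lipid kinase complexes.

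Sqstm1, the cargo receptor p62, was at 146321 normalised reads in Control replicate 1, against 70572 and 60271 in the other controls and 74178, 68734 and 76834 with FL-ApoE4. Optn, another receptor, was also highest there, with 833 in Control replicate 1 and 471 to 583 in the other libraries. The log2 differences of Sqstm1 and Optn were -0.22 and -0.09 with all libraries, and 0.17 and 0.16 without Control replicate 1, none of them called by limma. Both genes were named after their values were seen.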
